A study of Saccharomyces pastorianus Weihenstephan 34/70 with 7 samples.

Results

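SET3 and SET4 are a pair of paralogous yeast genes, and the protein of each carries a PHD finger, a small zinc-binding fold that reads histone tails, beside a SET domain. The pair was taken by gene symbol from the annotation of the arrays, which gave 2 genes of the 5635 Saccharomyces cerevisiae genes measured, with 1 probe set each (1779155_at for SET3 and 1779438_at for SET4). The pair had been chosen by values measured on these arrays, SET4 for its difference between the worts and SET3 as its paralog. The levels of both genes are therefore given as a description, without a test.

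The lager brewer's yeast Weihenstephan 34/70 had been grown at 14°C in wort of 21 °Plato, with or without 60 ppm of the peptidase mixture Flavourzyme, and RNA of stationary phase cells had been hybridized to Affymetrix yeast arrays. The 4 groups were maltose syrup wort with Flavourzyme (1 array), maltose syrup wort without it (maltose control, 2 arrays), glucose syrup wort with Flavourzyme (2 arrays) and glucose syrup wort without it (glucose control, 2 arrays). All groups shared the strain, the gravity and the growth phase, and the exact hour of sampling varied with the wort and with Flavourzyme, so that hour and condition cannot be told apart. The study ran each condition as duplicate fermentations and also took duplicate samples, and which of these the paired arrays are is not stated, so a p-value here measures only the spread between these samples.

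SET domains are found in a family of protein methyltransferases, and whether Set3 or Set4 has that activity was not examined here. In S. cerevisiae, Set3 is the scaffold of the Set3 complex, which brings the histone deacetylases Hos2 and Hst1 to active genes through methylated histone H3 and holds back meiotic genes. Set4 is scarce in well aerated S. cerevisiae cultures and more abundant with little oxygen, and it has been tied to ergosterol genes and to survival of stress. The lager strain is a hybrid, Saccharomyces pastorianus, while the probe sets were designed on S. cerevisiae, so signal from the copies of its other parent cannot be told apart from that of the S. cerevisiae copies.

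The expression values were log2 signals made by the Robust Multichip Average method (RMA), on which a difference of 1 is a doubling. Signals were set against the S. pombe probe sets on the same arrays, a species that was not in the fermentations: their median was 3.29 and their 95th percentile 4.96. Duplicate arrays correlated at 0.997 in maltose controls, 0.988 in glucose wort with Flavourzyme and 0.928 in glucose controls, and the median SD of a gene between duplicates was 0.0598, 0.137 and 0.369 in that order. The glucose controls were thus the loosest pair.

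SET4 was well above the S. pombe level in maltose wort and near that level in glucose wort. On the maltose arrays it was still under the median of all S. cerevisiae genes, 9.25 to 9.28. With Flavourzyme, it stood at 7.24 on the maltose array, against 3.96 and 4.17 on the glucose arrays. Without Flavourzyme, it stood at 6.55 and 6.38 in maltose controls (6.46 ± 0.121, SD, n = 2), against 3.51 and 3.29 in glucose controls (3.40 ± 0.153, SD, n = 2). Maltose arrays spanned 6.38 to 7.24 and glucose arrays 3.29 to 4.17, so the worts did not overlap. Of all genes tested, 26.9% had all maltose arrays above all glucose arrays, 55.7% had them so with Flavourzyme alone and 43.6% in the controls alone.

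The SET4 signal in maltose wort exceeded 99.96% of the S. pombe probe sets on the Flavourzyme array, and 99.9% and 99.7% of them on the control arrays. In glucose wort it exceeded 74.0% and 79.0% of them with Flavourzyme, and 61.4% and 43.4% of them in the controls. All 4 glucose arrays were therefore under the S. pombe 95th percentile, and the level in glucose wort was a bound and not a measurement. The gene's mean over the 7 arrays was 5.01, just above that percentile, and it was there only through the maltose arrays. The array also carried 11 probe sets for S. pombe genes with set symbols, which lay between 2.18 and 3.98 on every array.

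Between the worts, SET4 differed by 3.18 with Flavourzyme and by 3.06 without it, on the log2 scale, where the pooled SD between duplicates was 0.143. These differences include dim glucose signals. With each glucose array's own S. pombe 95th percentile (4.94 to 5.24) in their place, SET4 was at least 4.04-fold higher in maltose wort with Flavourzyme and at least 2.63-fold higher without it. Averaged over both enzyme states the difference was 3.12 as read and at least 1.70 against those percentiles, where the median of all genes was 0.26. Leaving out 1 array at a time kept the difference without Flavourzyme between 2.95 and 3.17, and that with Flavourzyme between 3.07 and 3.28. Scaling the arrays on the S. cerevisiae genes alone gave 2.67 (quantiles) or 2.96 (equal medians), so the direction held.

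The SET4 signal was also higher with Flavourzyme than without it in both worts, by less than between the worts. In maltose wort SET4 was at 7.24 with Flavourzyme, 0.78 above the mean of the controls on the log2 scale (1.72-fold), and above both of them by at least 0.69. Only 1 array stood on the Flavourzyme side of that comparison, and 42.9% of all genes had that array above both maltose controls. In glucose wort the mean with Flavourzyme was 4.06 ± 0.152 (SD, n = 2), 0.66 above that of the controls on the log2 scale, and the 4 arrays did not overlap, as for 10.4% of all genes in that direction. Both of these groups were under the S. pombe 95th percentile, so no fold is given. The mean Flavourzyme difference was 0.72 as read, and the interaction, the Flavourzyme difference of maltose wort less that of glucose wort, was 0.12. Both include the dim glucose signals, and with these raised to the S. pombe level of 4.96 the mean difference was 0.39 and the interaction 0.78, so neither was measured apart from that level.

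**Figure D1:**
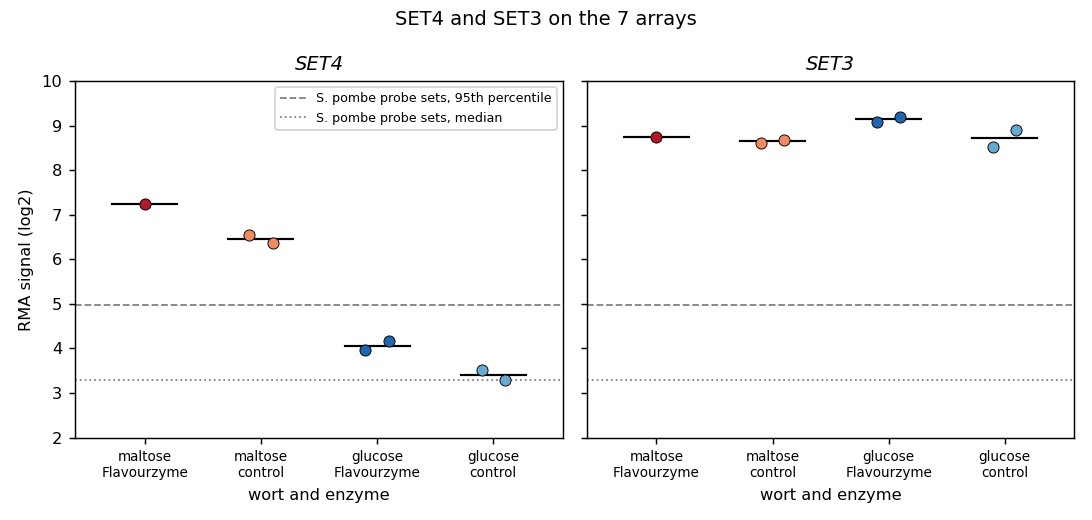
RMA signal (log2, vertical axis) of SET4 (left) and SET3 (right) on each of the 7 arrays, by wort and enzyme; points are arrays, bars group means, and the lines mark the S. pombe median (dotted) and 95th percentile (dashed). The 3 maltose arrays of SET4 sit at 6.38 to 7.24 and its 4 glucose arrays at 3.29 to 4.17, while SET3 lies between 8.51 and 9.20 throughout.

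SET3 was expressed well above the S. pombe level under every condition and varied little. It stood at 8.74 in maltose wort with Flavourzyme and at 8.61 and 8.68 in maltose controls (8.65 ± 0.0470, SD, n = 2). In glucose wort it stood at 9.09 and 9.20 with Flavourzyme (9.15 ± 0.0778, SD, n = 2) and at 8.51 and 8.91 in the controls (8.71 ± 0.283, SD, n = 2). The 2 glucose arrays with Flavourzyme were the highest, and the other 5 arrays, of 3 groups, lay within the span of the glucose controls. Over the 7 arrays the SD of SET3 was 0.256, against 1.64 for SET4.

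Between the worts, SET3 with Flavourzyme was 0.41 lower in maltose wort on the log2 scale (difference -0.41), and the arrays did not overlap, as for 32.6% of all genes in that direction. Without Flavourzyme, the difference was -0.06 and the maltose controls lay inside the range of the glucose controls. That small difference took the other sign, 0.14, without the second glucose control. Averaged over both enzyme states, the difference of SET3 was -0.24, with a pooled SD of 0.172, and -0.50 relative to the median of all genes.

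Flavourzyme went with a SET3 signal 0.44 higher in glucose wort (1.35-fold), where the arrays were apart by 0.18, and 0.09 higher in maltose wort, where the single array was 0.05 above the nearer control. The glucose difference was 0.24 without the first glucose control and 0.64 without the second, so its size rested on which of these arrays was used. The interaction was -0.35. The paralogs thus had different orders of levels. SET4 ran from maltose with Flavourzyme through maltose control and glucose with Flavourzyme to glucose control, with the last 2 below the S. pombe 95th percentile. SET3 was highest in glucose with Flavourzyme, and the other 3 groups did not differ beyond the spread of the glucose controls. Over the 7 arrays, the signals of SET3 and SET4 correlated at a Pearson r of -0.39, a description over arrays that share conditions and normalization.

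Whether the partners of Set3 moved with either paralog was examined in the other 6 genes of the Set3 complex. None was called for the wort effect, the mean of the maltose groups minus that of the glucose groups, at an adjusted p under 0.05 and an absolute log2 difference over 1.30, a rule that called 8.8% of all genes. At the adjusted p alone, which 34.3% of all genes passed, 2 of 6 did. HST1, the sirtuin deacetylase, was higher in maltose wort by 0.56 ± 0.15 on the log2 scale (SE, limma adjusted p = 0.0382), and HOS4, an ankyrin repeat subunit, was lower (log2 difference -0.83 ± 0.25, SE, adjusted p = 0.0477). The median wort difference of the 6 genes was 0.45, against 0.26 over all genes.

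On the arrays, HST1 read 10.95 in maltose wort with Flavourzyme, against 9.86 and 9.82 in glucose wort with it. It read 10.10 and 10.32 in maltose controls, against 10.29 and 10.13 in glucose controls. The controls overlapped, and without the maltose Flavourzyme array the difference was 0.0056 and no longer passed, so the call of HST1 rested on that array. HOS4 read 9.70 in maltose wort with Flavourzyme, against 10.73 and 10.46 in glucose wort with it. It read 9.50 and 9.59 in maltose controls, against 9.90 and 10.73 in glucose controls. Here all maltose arrays were below all glucose arrays, as for 14.2% of all genes. Neither gene passed when any one of the maltose or glucose Flavourzyme arrays was left out, nor with any maltose control left out. With either glucose control left out, more of the 6 genes passed the adjusted p, but no share of all genes is given for those fits.

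The other subunits did not pass. SNT1, the relative of the mammalian corepressors SMRT and NCoR, differed by 0.06 between the worts, and SIF2, a WD40 repeat protein, by 0.38. HOS2, the complex's other deacetylase, read 9.75 in maltose wort with Flavourzyme and 9.53 and 9.58 in maltose controls, but 7.74 and 8.92 in glucose wort with Flavourzyme and 10.40 and 8.25 in glucose controls. Its duplicates in glucose wort lay far apart, and its wort difference of 0.82 had an adjusted p of 0.298. Without the first glucose control, HOS2 was called, at 1.36. CPR1, a cyclophilin, differed by 0.52 (adjusted p = 0.108). For the Flavourzyme effect, limma passed none of the 6 genes, 0 of them even at an unadjusted p under 0.05, a level that 16% of all genes reached (0.0355% passed the rule). For the interaction none passed either (0.0355% of all genes did), and 1 of 6 reached an unadjusted p under 0.05, against 19.1% of all genes.

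**Figure D2:**
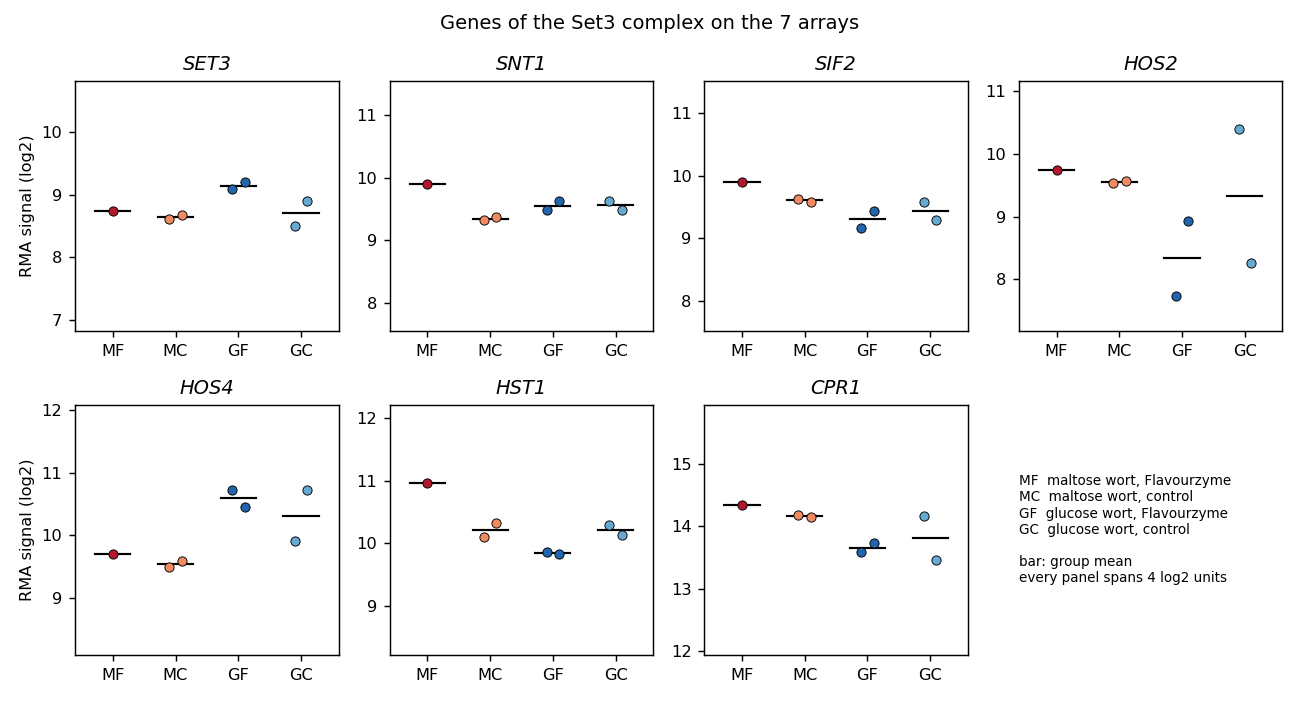
RMA signal (log2, vertical axis) of the 7 genes of the Set3 complex on each array, with MF, MC, GF and GC for maltose Flavourzyme, maltose control, glucose Flavourzyme and glucose control; points are arrays and bars group means, and all panels span the same number of log2 units. HOS2 is spread over 8.25 to 10.40 in glucose controls, and HST1 stands highest on the maltose Flavourzyme array at 10.95.

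Among the other 10 genes for SET-domain proteins, wort differences lay between -0.77 and 1.04 on the log2 scale. None was called at both thresholds, and 4 of 10 passed the adjusted p alone, all higher in maltose wort (23% of all genes passed in that direction). These were 3 methyltransferases of ribosomal proteins and 1 of a translation elongation factor. RKM2 was higher by 1.04 ± 0.15, RKM1 by 0.95 ± 0.22, RKM4 by 0.86 ± 0.24 and EFM1 by 0.82 ± 0.21 on the log2 scale (SE, adjusted p of 0.0108, 0.0255, 0.0428 and 0.0301 in the same order).

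RKM2, the steadiest of them, read 8.52 in maltose wort with Flavourzyme, against 7.63 and 7.37 in glucose wort with it. It read 9.08 and 9.12 in maltose controls, against 8.04 on both glucose control arrays. EFM1 rested on the maltose Flavourzyme array, at 10.09, and its difference was 0.30 without it. With the arrays scaled by quantiles over the S. cerevisiae genes alone, RKM1 was at 0.55 and RKM4 at 0.29 and neither passed. None of the 4 passed without any one maltose control or any one glucose Flavourzyme array. Fewer of the 10 genes passed the adjusted p without the maltose Flavourzyme array, and more passed with either glucose control left out. No share of all genes is given for those fits.

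The histone methyltransferases of the family did not pass. SET1, the catalytic subunit of COMPASS that methylates histone H3, differed by 0.35 between the worts. SET2, which methylates another position of H3, differed by 0.15, with 8.55 and 7.07 in glucose controls. SET5, which methylates histone H4, differed by 0.62 (adjusted p = 0.0766). RKM3 differed by 0.42 and CTM1, the methyltransferase of cytochrome c, by 0.73. SET6 had the lowest difference, -0.77, and its values spanned 4.69 to 6.98, with the maltose Flavourzyme array and the second glucose control under the S. pombe 95th percentile. Its difference was -1.31, and it was called as lower, with quantile scaling over the S. cerevisiae genes, and it was 0.012 without the maltose Flavourzyme array. The median over the 10 genes was 0.67, against 0.26 over all genes. In the family and the Set3 complex together, SET4 and SET3 included, maltose and glucose arrays did not overlap for 8 of 18 genes, where 41.1% of all genes did not overlap.

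**Figure D3:**
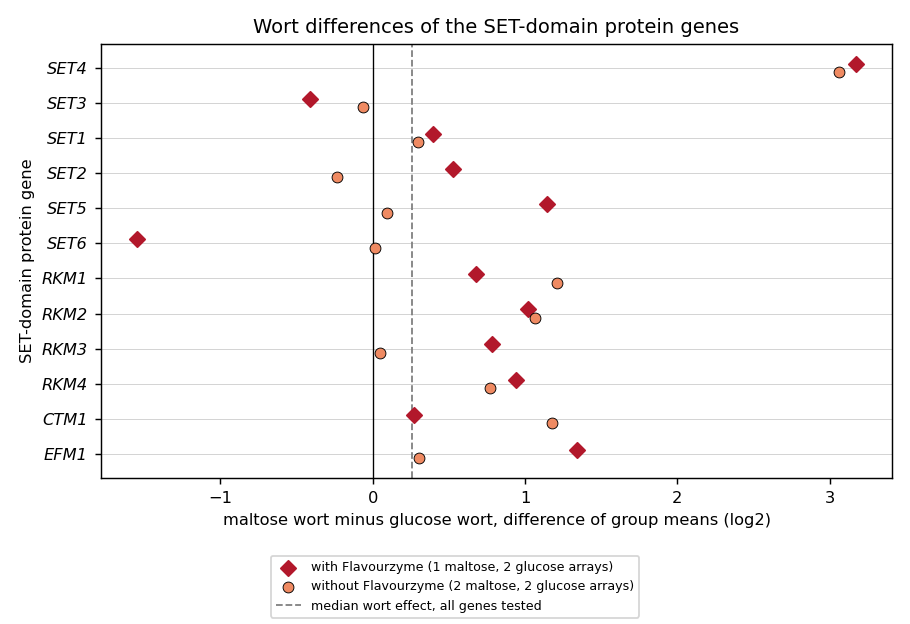
Difference of group means between maltose and glucose wort (log2, horizontal axis) for the 12 genes of SET-domain proteins (vertical axis), with Flavourzyme (diamonds) and without it (circles); the dashed line is the median wort effect of all genes tested. SET4 lies at 3.18 and 3.06, and SET6 has the lowest point, with Flavourzyme.

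Genes of the machinery that writes or reads the marks bound by Set3 showed no direction common to all lists. Of the 8 genes of COMPASS, the complex of SET1, none was called at both thresholds. At the adjusted p alone, 3 passed as higher in maltose wort (SWD1, SWD2 and SWD3, its WD40 subunits), as did 23% of all genes. As lower, 1 passed (BRE2, log2 difference -1.27). With the arrays scaled on the S. cerevisiae genes alone, the 3 higher genes did not pass and BRE2 was called as lower, at -1.62 (quantiles) or -1.43 (equal medians). Of 14 genes of the Rpd3 complexes, the other large class of histone deacetylase assemblies, none was called, 1 passed as higher (SAP30, 1.08) and 4 as lower (SDS3, RXT2, DEP1 and EAF3), where 11.3% of all genes passed as lower. With quantile scaling SDS3 was called as lower, at -1.48, and with equal medians SDS3 and RXT2 were, at -1.38 and -1.40. With either glucose control left out, more genes of both lists passed the adjusted p, but no share of all genes is given for those fits. The median of the COMPASS genes was 0.24 and that of the Rpd3 genes -0.24, against 0.26 over all genes, so the Rpd3 list lay lower. RPD3 itself, the catalytic subunit, differed by -0.28 (adjusted p = 0.24).

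Among 9 other histone deacetylase genes, 1 was called as higher in maltose wort, against 5.24% of all genes. This was HST4, a sirtuin, with a difference of 1.53 ± 0.45 (SE, adjusted p = 0.0476). It was 1.02 and did not pass with the quantile scaling over S. cerevisiae genes, and it did not pass without the maltose Flavourzyme array. At the adjusted p alone, 2 were higher and 2 lower, where 23% and 11.3% of all genes were. HST2 was called as lower with the quantile scaling, at -1.31, and HDA1 was without the maltose Flavourzyme array, at -1.38. These fits called 263 and 280 of all genes as lower. More of the 9 passed with either glucose control left out, but no share of all genes is given for those fits. Among 10 other genes for PHD finger proteins, 4 of which the COMPASS and Rpd3 lists also hold, 1 was called higher and 1 lower (3.57% of all genes were called lower). JHD2, the demethylase that removes the mark set by Set1, was higher by 1.43 ± 0.30 (SE, adjusted p = 0.0211), with 8.22 in maltose wort with Flavourzyme and 8.28 and 8.00 in maltose controls, against 6.71 and 6.79 in glucose wort with Flavourzyme and 7.31 and 6.20 in glucose controls. Its difference was 0.92, and it was not called, with the quantile scaling. YNG2 of the same list was called as lower with equal medians, at -1.33, in a fit that called 282 of all genes as lower.

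YNG1, a subunit of the histone acetyltransferase NuA3, was lower in maltose wort, with a log2 difference of -2.03 ± 0.16 (SE, adjusted p = 0.00516). It read 9.65 with Flavourzyme and 8.90 and 8.81 in controls in maltose wort, against 11.32 and 11.64 with Flavourzyme and 11.00 and 11.15 in controls in glucose wort. Its maltose arrays were all below its glucose arrays, as for 14.2% of all genes. Without the first glucose Flavourzyme array YNG1 still passed and JHD2 did not, and without the second, or without either maltose control, neither passed. In the COMPASS, Rpd3 and deacetylase lists no gene passed without any one of these 4 arrays. In these 4 lists no gene passed for the Flavourzyme effect or for the interaction. At an unadjusted p under 0.05, limma reached 2 of 8 COMPASS genes, 1 of 14 Rpd3 genes, 3 of 9 deacetylase genes and 3 of 10 PHD finger genes for Flavourzyme, and 1, 2, 3 and 2 of them for the interaction, where 16% of all genes reached that level for Flavourzyme and 19.1% for the interaction.

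Because Set4 of S. cerevisiae is known from cells with little oxygen, genes of that state were described next. Of 8 genes for anaerobic mannoproteins and sterol importers, 5 were called as higher in maltose wort and none as lower, where 5.24% of all genes were called higher. The median difference was 1.66 on the log2 scale, against 0.26 over all genes. TIR4, a mannoprotein of the anaerobic cell wall, read 13.12 in maltose wort with Flavourzyme, against 10.27 and 10.28 in glucose wort with it. It read 12.67 and 12.59 in maltose controls, against 10.01 and 9.67 in glucose controls, and was higher by 2.82 ± 0.16 (SE, adjusted p = 0.00248). The related TIR1 was higher by 1.98 and TIR3 by 1.90, and the sterol importers PDR11 by 2.62 and AUS1 by 1.42. DAN1, another anaerobic mannoprotein gene, differed by 0.05 (adjusted p = 0.85), a mean of opposite differences. It read 9.08 in maltose wort with Flavourzyme, against 7.57 and 7.96 in glucose wort with it. In maltose controls it was lower, at 7.36 and 7.23, against 8.65 and 8.38 in glucose controls. Its interaction was 2.53 (limma adjusted p = 0.0614).

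The count of 5 became 4 with either scaling on the S. cerevisiae genes. Genes called higher then fell from 295 to 127 (quantiles) or 176 (equal medians) of 5635. The list count was also 4 without the maltose Flavourzyme array, where 478 of 5635 genes were called higher. With any maltose control, any glucose Flavourzyme array or the second glucose control left out, fewer of the 8 were called, as were fewer of all genes. With quantile scaling, and without the maltose Flavourzyme array, 1 of the 8 passed the adjusted p as lower, but no share of all genes is given there. The median stayed between 1.33 and 1.74 when arrays were left out. Of 13 genes of ergosterol synthesis after squalene, 5 were called as higher and none as lower (ERG7, ERG2, ERG24, ERG6 and ERG3), against the same 5.24% of all genes, with a median of 0.93 against 0.26 over all genes. ERG7, lanosterol synthase, was higher by 1.36 ± 0.15 (SE, adjusted p = 0.00855) and ERG6, the sterol methyltransferase, by 1.83 ± 0.36 (SE, adjusted p = 0.0181). ERG11, the target of azole drugs, differed by 0.27 (adjusted p = 0.29). This count was 4 with quantile scaling, 3 with equal medians and 2 without the maltose Flavourzyme array. In these fits 127, 176 and 478 of 5635 genes were called higher. Fewer ergosterol genes were called without the second glucose control, any maltose control or any glucose Flavourzyme array, and so were fewer of all genes.

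Of 11 genes for regulators of oxygen, haem and sterol response, 1 was called, where 8.8% of all genes were called and 3.57% as lower. ROX1, which encodes a repressor of hypoxic genes, was lower in maltose wort, with a log2 difference of -2.18 ± 0.21 (SE, adjusted p = 0.00769). It read 10.29 with Flavourzyme and 7.58 and 7.81 in controls in maltose wort, against 11.18 and 11.57 with Flavourzyme and 10.71 and 11.21 in controls in glucose wort. The maltose arrays of ROX1 were all below its glucose arrays, as for 14.2% of all genes, while those of SET4 were all above. At the adjusted p alone, MGA2, a membrane-bound activator of fatty acid desaturation, was higher by 0.93. SUT1, a regulator of sterol uptake, also passed, with 5.32, 6.06 and 5.94 on the maltose arrays, but its 4 glucose arrays were all under the S. pombe 95th percentile. HAP1, the haem-responsive activator, differed by 0.79 and UPC2, the activator of sterol genes, by 0.29, and neither passed. UPC2 read 10.31 and 7.49 in the 2 glucose controls. MOT3, another repressor of hypoxic genes, differed by -0.04 (adjusted p = 0.906), a mean of opposite differences. It read 9.89 in maltose wort with Flavourzyme, against 8.20 and 8.62 in glucose wort with it. In maltose controls it was lower, at 7.68 and 7.69, against 9.60 and 8.90 in glucose controls. The interaction of MOT3 was 3.05 (limma adjusted p = 0.0715). With either Flavourzyme array of glucose wort left out, or either maltose control, ROX1, MGA2 and SUT1 no longer passed. Without the maltose Flavourzyme array the difference of ROX1 was -3.27. In that fit MOT3 was called as lower, at -1.56, and SUT1 as higher, at 1.63. The same fit called 280 of all genes as lower and 478 as higher. More of the 11 genes passed the adjusted p with either glucose control or the maltose Flavourzyme array left out, but no share of all genes is given for those fits.

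Genes of oxidative stress defence and of meiosis gave fewer calls, to be set against 5.24% of all genes called higher, and 23% higher and 11.3% lower at the adjusted p alone. Of 13 genes of oxidative stress defence, 1 was called, TSA2, a peroxiredoxin, higher by 1.89, and this difference was 0.70 and did not pass without the maltose Flavourzyme array, which read 12.15 against 9.80 and 9.86 in maltose controls. At the adjusted p alone, 2 genes were higher (TSA2 and SOD1) and 2 lower (GLR1 and SKN7), and the median was 0.14. Of 10 meiotic genes, which the Set3 complex is known to restrain in part, 1 was called. NDT80, the activator of middle meiotic genes, was higher by 2.04 ± 0.48 (SE, adjusted p = 0.0271), with 6.73 in maltose wort with Flavourzyme and 6.43 and 6.28 in maltose controls, against 4.65 and 4.14 in glucose wort with Flavourzyme and 5.57 and 3.65 in glucose controls. It did not pass without the maltose Flavourzyme array, any one maltose control or any one glucose Flavourzyme array. Like SET4, NDT80 had both glucose groups under the S. pombe 95th percentile on average. At the adjusted p alone, 4 were higher and 1 lower, and 1 of the 4, RME1, encodes a repressor of meiosis. IME1, the master activator, differed by 0.32 (adjusted p = 0.265). When either glucose control was left out, more genes of both lists passed the adjusted p, but no share of all genes is given for those fits.

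In these 5 lists no gene passed for the Flavourzyme effect or for the interaction in limma. At an unadjusted p under 0.05 for the Flavourzyme effect, limma reached 7 of 8 anaerobic and importer genes, 4 of 13 ergosterol genes, 4 of 11 regulators, 4 of 13 oxidative stress genes and 2 of 10 meiotic genes. For the interaction the counts were 1, 1, 4, 2 and 2 in the same order. Over all genes, 16% reached that level for Flavourzyme and 19.1% for the interaction. The Flavourzyme differences of the 8 anaerobic and importer genes, as means over both worts, were all above 0, between 0.02 and 1.28. Their median was 0.66 against -0.08 over all genes. The maltose side of each rests on 1 Flavourzyme array. For DAN1 the sign came from that array, since in glucose wort it read 7.57 and 7.96 with Flavourzyme, against 8.65 and 8.38 in controls.

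The genes whose signals ran most like SET4 were ranked by Pearson r over the 7 arrays, among 2630 genes above the S. pombe 95th percentile with an SD over arrays of at least 0.5. TIR4 came first (r = 0.997). It was followed by YSR3, a phosphatase of sphingoid base phosphates (0.993), CAF120, a protein associated with the Ccr4-Not complex (0.985), AAP1, an aminopeptidase (0.985), and RTT107, a scaffold in DNA repair (0.981). All 5 had high maltose and low glucose arrays, a pattern that ranking by r to SET4 selects. Their wort differences were 2.82, 1.01, 1.42, 0.99 and 1.75 in that order, and their interactions lay between -0.01 and 0.05. The glucose signals of SET4 were all under the S. pombe 95th percentile. RTT107 was also under it in the second glucose control, at 4.69. With quantile scaling the difference of YSR3 was 0.45. The 7 points shared 2 worts, the arrays and their normalization, and the r is a description of these arrays.

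The genes most like SET3, among 2631, followed another pattern, high in glucose wort with Flavourzyme and on the second glucose control. These were FTR1, an iron permease (r = 0.968), ALP1, an arginine permease (0.965), IZH1, a membrane protein of zinc homeostasis (0.961), YIL046W-A, an uncharacterized reading frame (0.957), and MCH1, a relative of monocarboxylate permeases (0.950). FTR1 read 9.80 and 10.16 in glucose wort with Flavourzyme, against 7.97 and 8.94 in glucose controls, and 8.63 in maltose wort with Flavourzyme, against 8.67 and 8.68 in maltose controls. SET3 itself had an SD under the minimum set for the other genes, so its pattern rested on small differences, among them that between the 2 glucose controls.

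**Figure D4:**
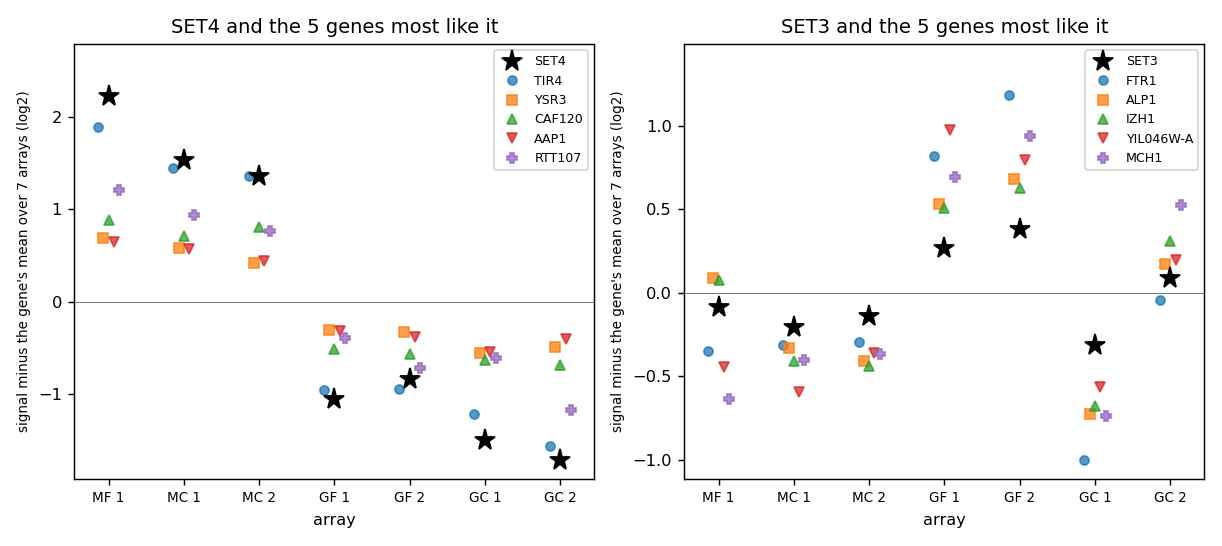
Signal minus the gene's own mean over the 7 arrays (log2, vertical axis) on each array (horizontal axis; MF, MC, GF and GC as maltose Flavourzyme, maltose control, glucose Flavourzyme and glucose control) for SET4 (left) and SET3 (right) with the 5 genes of highest r to each. SET4 and its 5 genes lie above their means on the 3 maltose arrays and below on the 4 glucose arrays, while SET3 and its 5 genes peak on the glucose Flavourzyme arrays.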

How the data were processed

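Gene expression was measured on 7 Affymetrix Yeast Genome 2.0 arrays. The authors made image files with Affymetrix Microarray Suite and deposited log2 signals from the rma function of the R package affy (background correction, quantile normalization, median polish), with versions not given in the sources used here. These deposited log2 values were used unchanged.

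Of 10928 probe sets, 5685 named S. cerevisiae genes, 4962 S. pombe genes or several genes, and 213 were controls, while 68 unannotated ones were not used. The brightest probe set stood for each of 48 genes that had more than 1, giving 5635 genes. There was no filter on low signals, and 5368 genes averaged above the S. pombe 95th percentile. The number of arrays limits the precision.

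The fit used limma 3.58.1 (R 4.3.3) on the 4 group means of every gene, with 3 residual degrees of freedom and eBayes moderation (prior SD 0.251). The single maltose Flavourzyme array was assumed to vary like the other groups. P-values were two-sided and adjusted by Benjamini-Hochberg over all genes of a comparison. Calls needed an adjusted p below 0.05 and, except for the interaction, an absolute log2 difference above 1.30. The fit was tested on simulated data. Members and gene lists were chosen with earlier results of these data known. Named were all genes of the Set3 complex and SET-domain lists, called members of other lists (at most 4 each, smallest p) and the 5 genes most like each paralog. List members named beyond these were chosen after their values were seen. Alternatives were other array scalings, a floor at the S. pombe level, averaging of probe sets, a filter on dim genes, analysis of variance without moderation, no fold threshold, a replicate block, and each array left out.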

Additional observations from a re-analysis of the deposited data

Results flagged for a closer look

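The 5 genes given here had a difference of group means with one sign in one condition and the opposite sign in the other. They are not the only named genes with such a change of sign. The Flavourzyme differences of HOS2, SET6, CTM1, EFM1 and DAN1, among others, also took opposite signs in maltose and glucose wort. The interaction itself did not pass in limma for any of the genes named in this paragraph. SNT1 of the Set3 complex had a wort difference of 0.34 with Flavourzyme and -0.21 without it (interaction adjusted p = 0.364). HST1 had a Flavourzyme difference of 0.74 in maltose wort and -0.36 in glucose wort (adjusted p = 0.147), and SET5 one of 0.55 in maltose wort and -0.50 in glucose wort (adjusted p = 0.28). Among the genes most like SET3, the Flavourzyme difference of FTR1 was -0.043 in maltose wort, hardly a change, and 1.53 in glucose wort (adjusted p = 0.219). That of MCH1 was -0.25 in maltose wort and 0.92 in glucose wort (adjusted p = 0.386). Each maltose value rests on 1 Flavourzyme array.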

How the results depend on the processing

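SET4 kept its direction under every alternative run. Its wort difference was 2.67 with quantile scaling over S. cerevisiae genes, 2.96 with equal medians, 1.89 with dim values raised to the S. pombe 95th percentile and 3.06 to 3.17 with 1 array left out. Its Flavourzyme difference was 0.87 with quantile scaling, 0.39 with raised values and 0.66 to 0.78 with 1 array left out, and its interaction was 0.78 with raised values and 0.0080 to 0.22 with 1 array left out. SET3 had a wort difference of -0.45 with quantile scaling and -0.34 to -0.063 with 1 array left out, a Flavourzyme difference of 0.16 to 0.44 and an interaction of -0.55 to -0.15. Wort calls numbered 496, with 59.5% higher in maltose wort. They were 390 with quantile scaling (32.6% higher), 458 with equal medians (38.4% higher), 138 by unmoderated analysis of variance, 1931 at the adjusted p alone, and 0 to 912 with 1 array left out (912 without the first glucose control, 0 without the second glucose Flavourzyme array). The scalings set the median wort difference of all genes at 0.07 and 0.11, against 0.26. Flavourzyme calls (2: FLO9 and PUT1) were 1 with quantile scaling, 0 with equal medians, 0 by analysis of variance and 0 to 55 with 1 array left out. Interaction calls (2: the same genes) were 167 with quantile scaling, 1 with equal medians, 1 by analysis of variance and 0 to 2200 with 1 array left out. The cause of these shifts was not tested.

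Whether the replicate numbers pair the arrays is not stated. Differences between the duplicates of a group correlated at 0.007 to 0.182 from group to group. With 1 such difference per group, this cannot exclude a pairing. With the replicate numbers as a block, wort calls were 417, Flavourzyme calls 0 and interaction calls 0, and the wort difference was 3.10 for SET4 and -0.19 for SET3. Of 25 named genes past the adjusted p for the wort effect, 20 remained with the block, 21 with either scaling, 12 by analysis of variance, 25 without either glucose control, 17 without the maltose Flavourzyme array, 3 without the first glucose Flavourzyme array, 1 without either maltose control and 0 without the second glucose Flavourzyme array.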
